A study of Homo sapiens with 6 samples.

Results

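Expression of 10 genes of the extrinsic death pathway was followed in cells labelled NCI-H446, a cultured line from a human small cell lung cancer, with and without a chemotherapy drug: FAS and its ligand FASLG, the 4 TRAIL receptors TNFRSF10A, TNFRSF10B, TNFRSF10C and TNFRSF10D, their ligand TNFSF10 (TRAIL), and the complex proteins FADD, CASP8 and CFLAR. The genes were read from every probe whose annotation names 1 of them and no other gene, and all 10 of the 10 were measured, by 17 probes, among 18336 genes in all. One further probe names CFLAR together with METTL21A and was not used. RNA of 6 flasks was hybridised to Phalanx OneArray microarrays in a single colour, 1 array a flask. The 3 control flasks (control 2, 5 and 6) received DMSO, a drug solvent, and the 3 drug flasks (drug 1, 3 and 4) received a drug that the labels do not name, at a dose and for a time that they do not state. In the characteristics every control carries 15 µl of DMSO, and they name no solvent for the drug flasks. The source names instead give 15, 16 and 17 µl and line numbers that climb with the row, and the characteristics were used. The flasks hold 1 line, so no value below speaks for other small cell lung cancers.

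Death receptors are membrane proteins of the TNF receptor family that carry a death domain inside the cell. When their ligand binds, they gather the adaptor FADD, which brings in caspase-8, and the caspase activates itself on this platform, the death-inducing signalling complex. CFLAR (c-FLIP) resembles caspase-8 but has no protease activity, and its forms compete with caspase-8 or pair with it there. TNFRSF10A and TNFRSF10B carry the TRAIL signal inward, whereas TNFRSF10C and TNFRSF10D bind TRAIL without a complete death domain and are called decoys. Many small cell lung cancers are known for low or silenced caspase-8.

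Of the 10 genes, 3 were lower in the drug flasks and 1 was higher. CFLAR fell 11.4-fold on its brighter probe and 1.43-fold on the other, FAS fell 8.78-fold and CASP8 fell 1.65-fold, while TNFRSF10B rose 1.79-fold. The other 6 genes (TNFRSF10A, TNFRSF10C, TNFRSF10D, FASLG, TNFSF10 and FADD) did not pass the test. All values below are log2(intensity + 1) after quantile normalization, and a call is an adjusted p below 0.05 in a limma fit over all 31741 probes (Benjamini-Hochberg). Over all 18336 genes 35.1% were called, 17.5% lower and 17.6% higher, against 40% of these 10, so the share of the 10 that changed was near that of all genes. Their median log2 difference, drug minus control, was -0.25 against 0.0075 over all genes. Ordered from the lowest difference up, CFLAR on its brighter probe ranked 18 and FAS 33 of the 18336 genes. With the mean of both CFLAR probes, at -2.01, CFLAR lay above FAS, at -3.13, in that order. Of all genes, 7.68% were called at least 2-fold lower and 0.213% at least 8-fold lower. Every drug array lay above every control array for 2 of the 10 (23.8% of all genes) and below for 3 (23.3% of all genes). An array averages the cells of a flask, so a change in the share of cells that express a gene and a change in RNA per cell cannot be told apart.

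**Figure D1:**
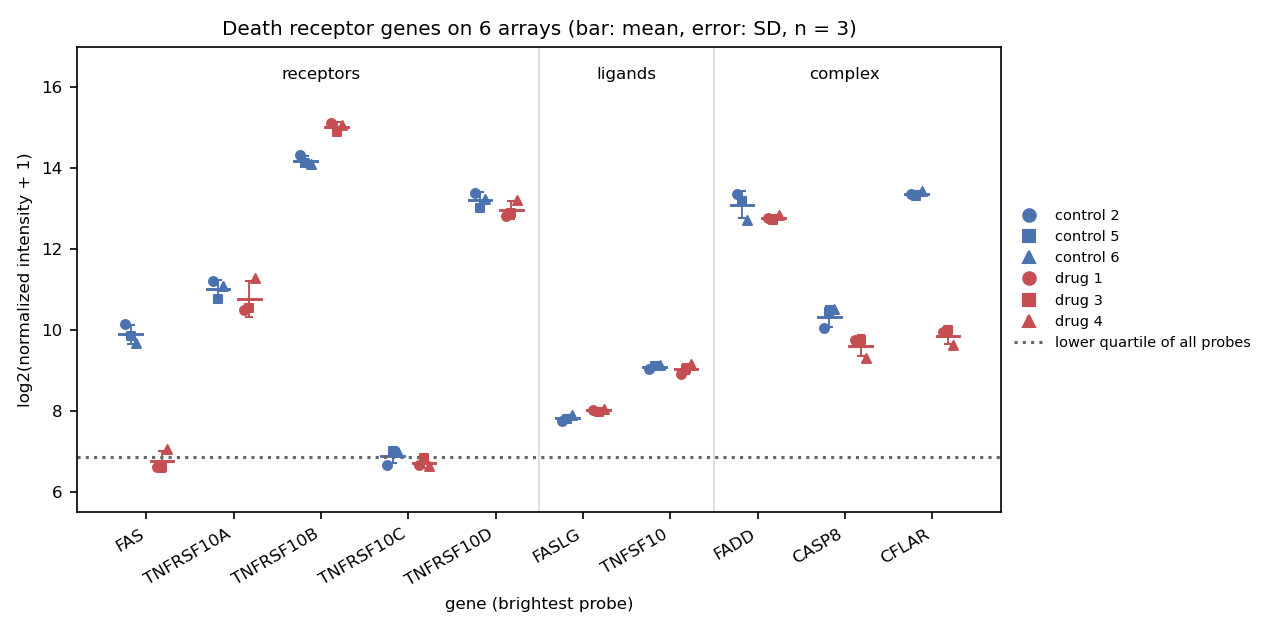
The 10 genes by role, each on its brightest probe, as log2(normalized intensity + 1) on the 3 control arrays (blue) and 3 drug arrays (red); bars are means and error bars SDs, and the dotted line is the lower quartile of all probes, 6.86. CFLAR, FAS and CASP8 are lower and TNFRSF10B is higher on every drug array than on any control array. FASLG is also separated, with group means only 0.19 apart, and the other 5 genes overlap.

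The sequence before the start of each gene that was lower is shown because these 3 genes shared a direction. The windows are the 250 bases before the most upstream start that RefSeq's promoter table (GRCh38.p14) lists for the gene, on the plus strand, 5′ to 3′. Capitals mark matches to GGGNNNNNCC, a loose form of the NF-kappaB site, on either strand, with overlapping matches run together. For FAS the window is chr10:88990548-88990797, for CFLAR chr2:201118466-201118715 and for CASP8 chr2:201233213-201233462.
FAS: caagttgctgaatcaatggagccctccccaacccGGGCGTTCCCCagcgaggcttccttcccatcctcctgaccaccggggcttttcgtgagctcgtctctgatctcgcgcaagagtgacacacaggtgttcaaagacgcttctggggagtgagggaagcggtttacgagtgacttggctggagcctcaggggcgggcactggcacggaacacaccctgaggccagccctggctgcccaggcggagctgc
CFLAR: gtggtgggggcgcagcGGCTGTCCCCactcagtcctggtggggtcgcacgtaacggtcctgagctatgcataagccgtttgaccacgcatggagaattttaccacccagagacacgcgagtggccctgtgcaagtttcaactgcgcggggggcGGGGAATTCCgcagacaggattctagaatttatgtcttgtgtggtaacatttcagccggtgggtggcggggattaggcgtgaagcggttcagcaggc
CASP8: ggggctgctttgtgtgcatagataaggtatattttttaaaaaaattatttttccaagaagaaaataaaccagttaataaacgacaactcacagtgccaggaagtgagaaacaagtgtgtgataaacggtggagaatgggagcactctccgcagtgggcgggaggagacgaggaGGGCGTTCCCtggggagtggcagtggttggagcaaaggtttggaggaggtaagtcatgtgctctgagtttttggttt
FAS and CASP8 both hold GGGCGTTCCC, and CFLAR holds GGGGAATTCC. The same loose motif is found in 54.4% of the 35116 windows of this length in the table, so a match describes these letters and is no evidence of binding. The table lists 3 starts for FAS, 4 for CFLAR and 3 for CASP8. It matched 6 of the 10 genes, and TNFRSF10A, TNFRSF10B, TNFRSF10C and TNFRSF10D were the others.

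FAS, the receptor for Fas ligand, had 1 probe, with log2 intensities of 10.15, 9.85 and 9.68 in control flasks 2, 5 and 6, against 6.61, 6.61 and 7.06 in drug flasks 1, 3 and 4. The groups lay far apart, and drug 1 and drug 3 lay under the lower quartile of all probes, 6.86, while drug 4 lay just above it. The mean fell from 9.89 ± 0.24 (SD, n = 3) to 6.76 ± 0.26 (n = 3), a log2 difference of -3.13 (SE 0.185, limma adjusted p = 4.19e-05). In the intensities as deposited, FAS read 1225, 885 and 770 in the control flasks and 110.3, 109 and 148 in the drug flasks. With the drug mean this dim, the fold depends on the constant added before the logarithm: it was 8.78 with 1 added and 6.34 with 50 added. No detection call was used, so whether FAS stood above background in the drug flasks was not established.

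TNFRSF10B, the TRAIL receptor also called DR5, had 3 probes and was higher on each. The brightest read 14.33, 14.14 and 14.11 in the control flasks, in the same order, against 15.12, 14.90 and 15.07 in the drug flasks. The groups did not overlap, and the lowest drug array lay above the highest control array on all 3 probes. The mean rose from 14.19 ± 0.12 (n = 3) to 15.03 ± 0.11 (n = 3), by 0.84 on the log2 scale (SE 0.127, limma adjusted p = 0.00209). The other probes rose by 0.53 and 0.54 (limma adjusted p = 0.0167 and 0.0101), which is 1.44-fold and 1.46-fold. Over the alternatives the brightest probe, or the mean of the 3 probes where that was taken, kept its call (adjusted p from 0.000576 to 0.0149). The second lost its call with median centring (0.139) and without control 5 (0.0521), drug 1 (0.0773) or drug 3 (0.0810), and the third without drug 1 (0.0525).

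TNFRSF10A, the other TRAIL receptor that signals death (DR4), read 11.20, 10.76 and 11.09 in the control flasks and 10.49, 10.55 and 11.28 in the drug flasks. Drug 1 and drug 3 lay under every control array, and drug 4 lay above all of them. The log2 difference of -0.25 (95% interval -0.81 to 0.31, limma adjusted p = 0.526) was within the spread between flasks, and without drug 4 it was -0.50 (adjusted p = 0.0817).

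The decoy TNFRSF10D showed a like order on its brighter probe, with 13.39, 13.02 and 13.24 against 12.81, 12.89 and 13.21, where drug 4 again lay among the controls. Its log2 differences were -0.25 (interval -0.63 to 0.13) and, on the other probe, 0.009 (interval -0.31 to 0.32), and neither passed the test (limma adjusted p = 0.323 and 0.974). The brighter probe of the decoy TNFRSF10C was near the lower quartile in both groups, at 6.89 ± 0.19 and 6.70 ± 0.11 (n = 3 each). Its log2 difference was -0.18 (interval -0.51 to 0.15, limma adjusted p = 0.406), and its sign turned with the values as deposited and with median centring. The second TNFRSF10C probe was dim in both groups, at 6.63 and 6.62, with a difference of -0.007 (interval -0.30 to 0.28, limma adjusted p = 0.979).

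The 4 TRAIL receptor genes lie side by side in the RefSeq gene order, with 0 other protein-coding genes between them. Taken within each array, the log2 difference between TNFRSF10B and each neighbour was higher in all 3 drug flasks than in any control flask. The shift was 1.08 against TNFRSF10A, 1.02 against TNFRSF10C and 1.08 against TNFRSF10D. Only the brightest probe of each gene was used, and TNFRSF10B was the only 1 of the 4 genes called, so these shifts mostly restate its rise of 0.84. The rest of each shift comes from the uncalled differences of TNFRSF10A, TNFRSF10C and TNFRSF10D, at -0.25, -0.18 and -0.25. The other TNFRSF10B probes rose less, by 0.53 and 0.54, and the second probes of TNFRSF10C and TNFRSF10D moved by -0.007 and 0.009. TNFRSF10C was also dim in the drug flasks. An exact two-sided permutation test gave p = 0.1 for each of these 3 comparisons (0.1 adjusted over the 3), the smallest value this test can give with 3 against 3 flasks, so the test cannot fall below 0.05 here.

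The ligands were low to moderate and did not pass the test. FASLG read 7.75, 7.81 and 7.90 in the control flasks and 8.02, 7.97 and 8.05 in the drug flasks, so the groups were separated but by little. Its log2 difference was 0.19 (interval -0.070 to 0.45, limma adjusted p = 0.263), and 47.0% of all genes had groups that did not overlap. TNFSF10 overlapped on both probes. Its log2 difference was -0.060 (interval -0.34 to 0.22) on the brighter probe and 0.15 (interval -0.30 to 0.59) on the other, and the brighter one turned in sign with the values as deposited, as did the mean of both probes. These intervals hold for quantile scaling. With the values as deposited, FASLG stood at 0.41 (limma adjusted p = 0.0723) and the second TNFSF10 probe at 0.51 (0.16).

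FADD, the adaptor that links receptors to caspase-8, read 13.37, 13.19 and 12.72 in the control flasks and 12.77, 12.73 and 12.84 in the drug flasks. Control 6 lay at the level of the drug flasks, and control 2 and control 5 lay above it. The log2 difference was -0.31 (interval -0.74 to 0.11, limma adjusted p = 0.262). It passed the test as a fall of -0.50 without control 6 (adjusted p = 0.0285) and of -0.41 with array quality weights (0.046), so 1 array decides this call.

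CASP8, the initiator caspase of the pathway, was lower on both of its probes. The brighter read 10.04, 10.44 and 10.52 in the control flasks and 9.76, 9.76 and 9.31 in the drug flasks, with drug 4 lowest. The other read 9.31, 9.38 and 9.61 against 8.99, 8.98 and 8.68, and on both probes every drug array lay under every control array. The log2 differences were -0.72 (SE 0.189, limma adjusted p = 0.0239) and -0.55 (SE 0.146, adjusted p = 0.0255). Both calls were near the threshold. The brighter probe missed it without control 5, control 6 or drug 4 (adjusted p = 0.0698, 0.0758 and 0.0638), at differences of -0.66, -0.63 and -0.58, and the other probe missed it without any array but control 2 (from 0.0549 to 0.0651).

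CFLAR, the caspase-8 relative that restrains the complex, had 2 probes that moved by very different amounts. The brighter read 13.37, 13.31 and 13.45 in the control flasks and 9.95, 9.99 and 9.63 in the drug flasks. In the deposited intensities these were 11215, 10589.7 and 10564 against 961, 985 and 862. The mean fell from 13.37 ± 0.072 (n = 3) to 9.86 ± 0.20 (n = 3), a log2 difference of -3.51 (SE 0.139, limma adjusted p = 1.44e-05), and the groups lay far apart.

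The second CFLAR probe read 11.62, 11.37 and 11.86 against 11.04, 11.17 and 11.11. This is a log2 difference of -0.51 (SE 0.152, limma adjusted p = 0.0383), or 1.43-fold, and 6 of 14 alternatives ended the call, with adjusted p between 0.0503 and 0.129: array quality weights, and leaving out any 1 array other than control 5. Subtracting the second probe from the brighter one within each array gave 1.74, 1.93 and 1.59 in the control flasks and -1.08, -1.18 and -1.48 in the drug flasks. The level of 1 probe against another depends on the probes themselves, so only the shift is compared, and it was -3.0 (exact two-sided permutation test, p = 0.1, the smallest possible; 0.28 adjusted over 7 probe pairs). The other 6 pairs of probes of 1 gene shifted by between -0.26 and 0.31. Averaging the 2 probes gave a log2 difference of -2.01 for CFLAR (limma adjusted p = 3.74e-05). CFLAR is spliced into several forms, among them a long and a short protein, and which transcripts each probe detects was not analysed here.

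**Figure D2:**
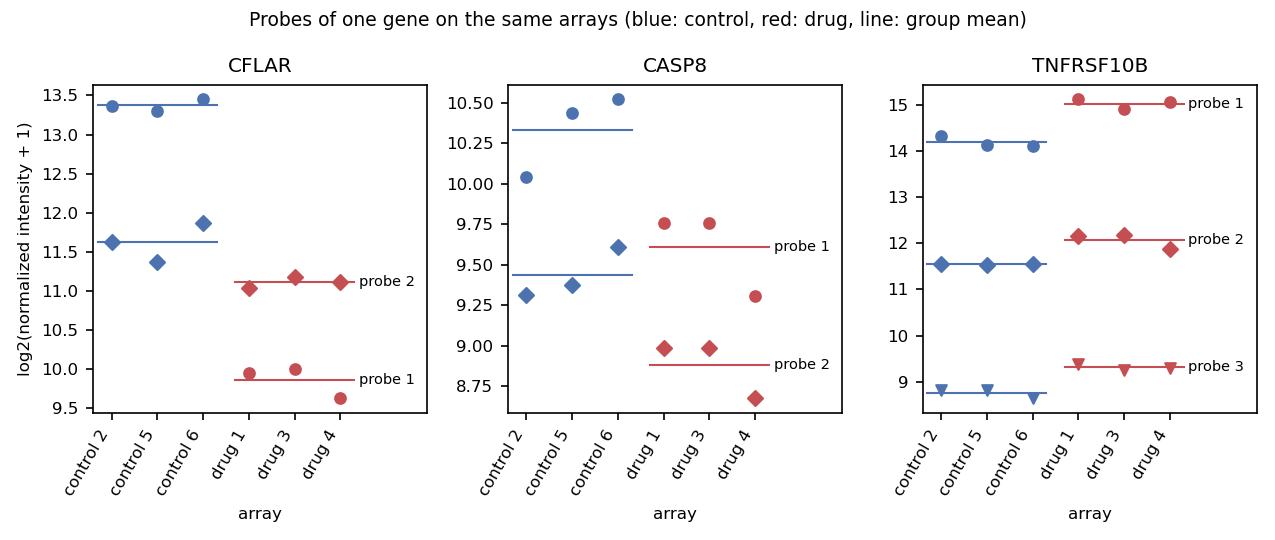
log2(normalized intensity + 1) of each probe of CFLAR, CASP8 and TNFRSF10B on the 6 arrays, with control arrays in blue, drug arrays in red and lines at the group means; each panel has its own scale. The step from control to drug flasks is -3.51 on one CFLAR probe and -0.51 on the other, against -0.72 and -0.55 for CASP8 and 0.84, 0.53 and 0.54 for TNFRSF10B.

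**Figure D3:**
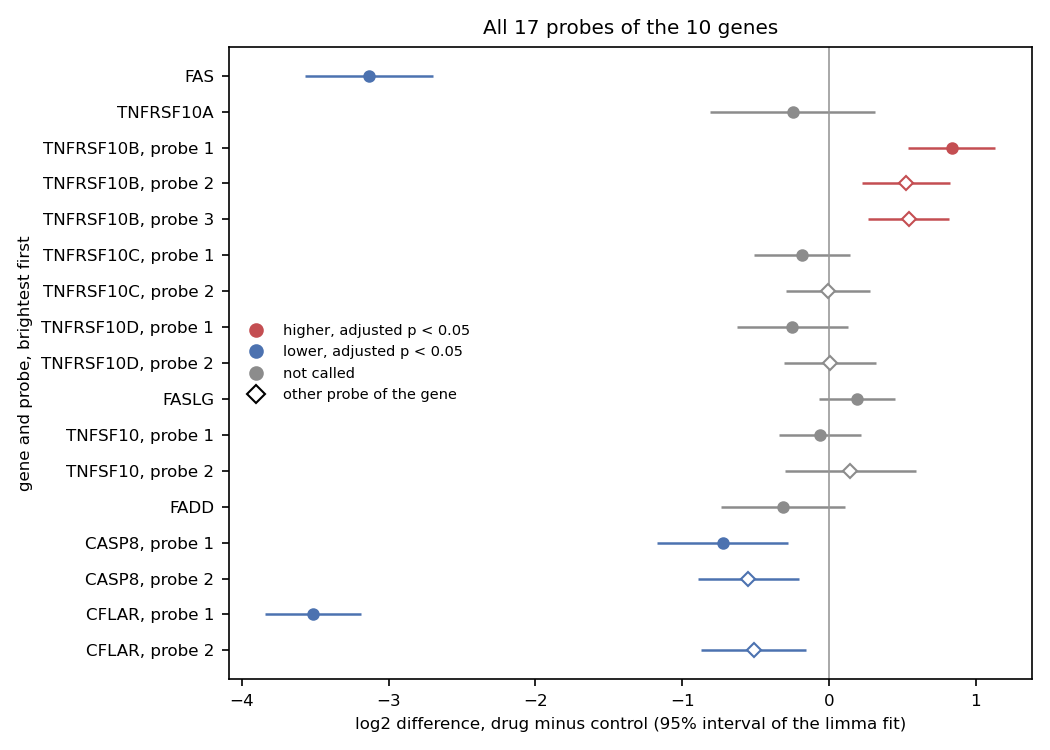
log2 difference, drug minus control, of all 17 probes with the 95% interval of the limma fit; red marks probes called higher, blue lower and grey not called, and open diamonds are the dimmer probes of a gene. The probes called lower are 5 (FAS, and both of CASP8 and of CFLAR) and those called higher are the 3 of TNFRSF10B.

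Of the 17 probes 8 were called, 3 higher and 5 lower, against 31.5% over all probes. CFLAR, CASP10 and CASP8 are neighbours in the RefSeq gene order with 0 other protein-coding genes between them. CASP10, an initiator caspase related to caspase-8, was not called on any of its 3 probes, with log2 differences of -0.27, 0.19 and -0.55 (limma adjusted p = 0.261, 0.510 and 0.132). The 3 genes whose values over the 6 arrays, each centred on its own mean, were nearest to those of the brighter CFLAR probe were NUPR1, ATF5 and CMKLR2, at root mean square distances of 0.072, 0.095 and 0.12 on the log2 scale. Their log2 differences were -3.48, -3.44 and -3.35, a likeness that this choice of genes fixes.

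Beyond these 10 genes, 67 of the 73 genes on 6 lists of related steps were measured, and 18 of them rose and 11 fell, or 43.3% against 35.1% of all genes. The rest were not analysed here. Among 11 other receptors, ligands and decoys of the family, 2 rose and 1 fell, with a median log2 difference of 0.028, and 2 fell without drug 4 or with array quality weights. TNFRSF1A, the main TNF receptor, fell from 14.79 ± 0.18 to 13.03 ± 0.27 (n = 3 each), 3.39-fold (limma adjusted p = 0.000319), and by nearly the same amount on its other probe (-1.75). NGFR, the neurotrophin receptor of this family, rose from 8.57 ± 0.18 to 11.95 ± 0.21, 10.4-fold (adjusted p = 2.04e-05), and TNFRSF21 (DR6) rose 2.24-fold (adjusted p = 0.00229).

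In the TNF receptor complex, which holds the adaptors and ubiquitin ligases beneath TNFRSF1A, 2 of 13 genes rose and 11 were not called, with a median log2 difference of 0.17. This is 15.4% called, against 35.1% of all genes. The count that rose was 4 without control 2 and 1 to 5 over all alternatives, and 1 gene fell without drug 4 or with array quality weights. The inhibitor of apoptosis BIRC3 rose from 9.82 ± 0.16 to 11.54 ± 0.13, and RNF31, the catalytic subunit of the linear ubiquitin ligase, rose by 0.81 on the log2 scale (limma adjusted p = 0.000137 and 0.0114). The call for RNF31 was lost with median centring (adjusted p = 0.117). Among 14 modulators of the death-inducing complex, 5 rose and 1 fell (42.9% called), with a median of -0.12. The count that rose was 1 without drug 1 or drug 3, 2 without control 2 or drug 4 and with median centring, and 3 without control 5. The count that fell was 1 to 3 over all alternatives, and it was above 1 in 9 of the 15. Among these it was 2 without control 2, and 3 with the values as deposited or array quality weights. FAIM, named as an inhibitor of Fas-mediated apoptosis, read 10.81, 9.82 and 10.29 against 6.98, 6.98 and 7.91 and fell by 3.02 on the log2 scale (limma adjusted p = 0.000516). PTPN13, a phosphatase that binds FAS, rose from 9.38 ± 0.10 to 11.57 ± 0.17 (4.56-fold, adjusted p = 5.08e-05). GALNT14, an enzyme of O-glycosylation that was dim in the control flasks, and DEDD2, a death effector domain protein, rose by 1.14 and 0.56. The calls of GALNT14 (adjusted p = 0.0331) and DEDD2 (0.0395) were each lost in 6 alternatives, with adjusted p up to 0.158 and 0.177.

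Downstream, at the mitochondrial and executioner step, 6 of 17 genes rose and 6 fell, with a median log2 difference of 0.19. That is 70.6% called, against 35.1% of all genes, on a list chosen with earlier results of these data known. BID, which carries the signal from caspase-8 to mitochondria, fell from 9.38 ± 0.10 to 7.97 ± 0.18 (2.67-fold, limma adjusted p = 0.000299). BCL2L1 (BCL-XL), which protects mitochondria, fell 3.19-fold, from 11.89 ± 0.25 to 10.22 ± 0.34 (adjusted p = 0.000879). BCL2L11 (BIM), which activates cell death there, rose 6.04-fold on its brightest probe and by 2.55 on the log2 scale on 1 other, while the remaining 3 probes were not called, at 0.25, 0.061 and 0.28. CYCS (cytochrome c) rose 3.23-fold and CASP9, the caspase of the apoptosome, 2.99-fold (adjusted p = 0.000793 and 0.000117). Of 4 necroptosis genes 1 was called: MLKL, the effector of that form of death, fell 2.65-fold, and its other probe fell by 1.49 on the log2 scale. Without control 2, 1 gene of this list was also called higher. RIPK3 (chosen after its values were seen), the kinase that acts on MLKL, was dim in both groups.

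Of 8 transcription factors known to act on genes of this pathway, 3 rose and 2 fell, or 62.5% called against 35.1% of all genes. Only 1 rose without control 2, control 5, drug 1 or drug 4, or with median centring. NFKB1, which encodes the p50 subunit of NF-kappaB, read 11.70, 11.63 and 11.53 against 9.05, 9.12 and 9.08 and fell 5.80-fold (limma adjusted p = 1.76e-05). RELA, on the same list and chosen after its values were seen, was not called, at a log2 difference of -0.055 (adjusted p = 0.835). FOXO1 rose 5.02-fold (adjusted p = 5.35e-05), YY1 fell 1.80-fold (0.00107), and DDIT3 (CHOP), a stress factor known to raise TNFRSF10B, rose 1.63-fold (0.0223). DDIT3 missed the threshold with median centring (adjusted p = 0.096) and, at 0.0601 to 0.0782, without control 2, control 5, drug 1 or drug 4.

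**Figure D4:**
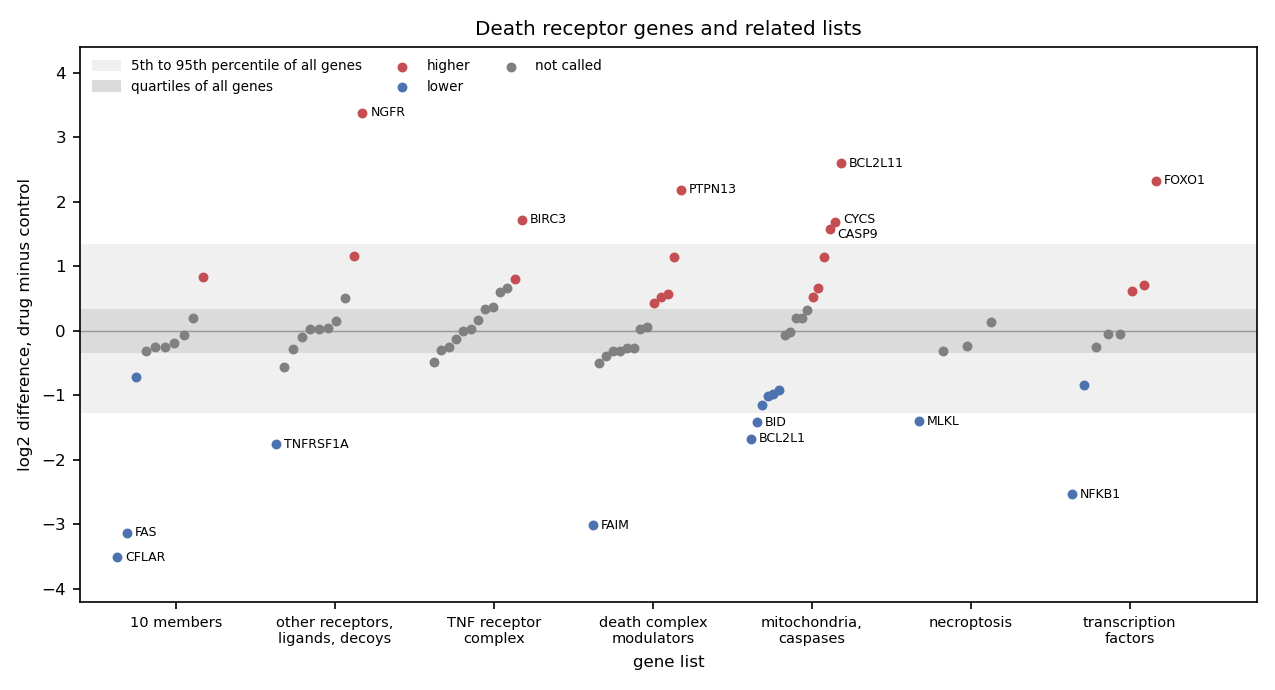
log2 difference, drug minus control, of each measured gene of the 10 and of the 6 related lists, ordered within a list; red is called higher, blue lower and grey not called, the darker band spans the quartiles of all genes and the lighter band their 5th to 95th percentile. CFLAR, FAS, FAIM and NFKB1 lie far below the bands and NGFR, BCL2L11, FOXO1 and PTPN13 far above, while most members lie inside them.

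Across the whole array set, the median deposited intensity ranged from 376 to 476, correlations were 0.978 to 0.990 within a group and 0.948 to 0.958 between groups, and the first principal component, with 64.9% of the variance, separated control from drug flasks. Of 10 small cell lung cancer markers measured, NEUROD1 was dim in both groups, NCAM1, SYP and ENO2 were higher and YAP1 was lower with the drug, and their summed intensity was 102906 to 111327 in the control and 116901 to 122937 in the drug flasks. Most of that sum came from UCHL1, which was not called. It also adds YAP1, which fell from a mean of 14.23 to 11.76, to the markers that rose. Of these 10 markers 40% were called, against 35.1% of all genes. Of 4 epithelial markers 3 were higher, or 75% called. Their sums were 123883 to 162279 in the control and 188158 to 206494 in the drug flasks, and CDH1 was dim in the control flasks. Most of each epithelial sum came from KRT19, at means of 17.09 in the control and 17.59 in the drug flasks. Such sums add probes of different brightness. Of 6 fibroblast and endothelial markers 0 were called by limma, and 0 had an unadjusted p below 0.05, with sums of 2488 to 3210 and 2404 to 3004. Of 6 blood markers PTPRC, CD3E and LYZ were dim in both groups and CD14 was higher, with sums of 2458 to 2689 and 3697 to 3864. Most of each blood sum came from CD14, at means of 10.80 in the control and 11.55 in the drug flasks. UCHL1, the other small cell lung cancer markers given by control mean, and the marker genes that were called were named after their values were seen. The part of these marker shifts in the results above was not tested.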

How the data were processed

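The authors deposited linear probe intensities, for 31741 probes on each of 6 arrays. Per the labels' protocols, Trizol was used to extract RNA, which was amplified to amino allyl aRNA and coupled to Cy5. Any background correction or scaling behind the deposited intensities is not given in these sources, and some values lie below 0 (462, 968 and 1 on control 2, control 5 and drug 4).

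The medians of the arrays spanned 0.338 in log2 units, so intensities were quantile normalized, floored at 0, increased by 1 and log2 transformed. Folds of dim probes depend on the added constant. A probe under the lower quartile, 6.86, is called dim. Drug and control were compared with limma 3.58.1 (R 4.3.3; lmFit and eBayes, two-sided), adjusted over all probes, and the fit was tested on simulated data. With 3 arrays a group, their number limits the precision. Flasks are described as separate, so p-values rest on the spread between flasks of 1 line.

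Gene names came from GEO's platform annotation: 24740 probes name 1 gene, 977 several (not used) and 6024 none. Old symbols (1497) were updated through RefSeq synonyms. Each gene was represented by its brightest probe (highest mean of all arrays), and members with all their probes. Named were all 10 members, up to 4 called genes with the largest change from each related list, TNFRSF1A, CASP10 and BID, and the 3 nearest profiles; a further gene of this rule is not analysed here. Alternatives were other scaling, constants of 16 and 50, brighter probes only, trended, robust or weighted fits, probe means and leaving out each array. The members and lists were chosen with earlier results of these data known.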

Additional observations from a re-analysis of the deposited data

How the results depend on the processing

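FAS and CFLAR kept their fall, and TNFRSF10B its rise, in all 15 alternatives. The log2 differences ran from -3.30 to -2.67, from -3.66 to -2.01 and from 0.64 to 0.91. CFLAR and TNFRSF10B were read on their brightest probe, except where the mean of a gene's probes was taken. That mean gave the -2.01 and the 0.64. The second CFLAR probe lost its call in 6 of 14 alternatives, and the dimmer TNFRSF10B probes lost theirs in 4 and 1. Leaving out 1 array at a time, 2 to 3 members were called lower and 1 higher, and of the related genes 12 to 18 rose and 11 to 13 fell. CASP8 then ranged from -0.87 to -0.58 and FADD from -0.50 to -0.17. CASP8 lost its call without control 5, control 6 or drug 4, and FADD was called without control 6. FADD was also called with array quality weights, at -0.41. The cause was not tested. Without control 6 the count of 3 lower members held FADD in place of CASP8.

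With the values as deposited the median of all genes moved by 0.197. There TNFRSF10C stood at 0.19 and its other probe at 0.38, and TNFSF10 at 0.040, against negative main values, and none passed the test. With median centring TNFRSF10C stood at 0.055, its other probe at 0.25 and the second TNFRSF10D probe at -0.11. TNFSF10 stood at 0.043 with the mean of its probes. Without 1 array, the other TNFRSF10C probe ranged from -0.076 to 0.054 and the second TNFRSF10D probe from -0.092 to 0.085, turning in sign. Median centring also cut the related genes that rose from 18 to 10, and all genes called higher from 3224 to 2326, while those called lower went from 3214 to 3265 (50.1% and 41.6% of calls higher). TNFRSF10C has no value among the brighter probes, where it was not tested. No paired analysis was possible because the groups share no replicate number. With 3 arrays a group and no detection calls, small changes and dim probes are the least certain.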
